A study of Mus musculus with 8 samples.

Results

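Immediate early genes are the genes that a cell switches on first after a stimulus, without new protein synthesis. In neurons, calcium entry and growth factor signals reach them through the kinases of the MAP kinase pathway and through the factors CREB and SRF, and many of their products are transcription factors that act on later genes. In sensory ganglia they are known as markers of recent activity, injury and handling. Kcnip3 encodes DREAM, a repressor that binds calcium and is known to bind DNA elements with the core GTCA, and Fos is a textbook candidate target. The 10 genes described here are Fos, Fosb, Fosl2, Jun, Junb, Egr1, Egr3, Arc, Nr4a1 and Nr4a2, listed by name, and a probe set was a member when the platform annotation gave 1 of these symbols alone. That found 18 probe sets for 10 of the 18193 genes measured. Of the 10 genes, 6 had 1 probe set each, Fosl2, Jun and Egr3 had 2 each and Nr4a2 had 6.

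The arrays hold RNA of mouse trigeminal ganglia, the sensory ganglia of the face. Control mice (4 arrays) were compared with daDREAM transgenic mice (4 arrays), which carry a form of DREAM understood to repress regardless of calcium, and the titles of the latter share the tag tg16. Both groups are labelled as strain C57B/6XCBA, and the labels' protocols describe adult males kept under a daily light and dark cycle and used in the light phase. The sources used here do not give the promoter of the transgene, the age in weeks, whether animals were pooled or the time from handling to collection. The study's title places the comparison in work on pain. The arrays of a group are called biological replicates in the design text, and whether each is 1 animal is not stated, so a p-value here reflects the variation among these 8 arrays only. Values are log2 RMA signals, on which a difference of 1 is a doubling, and differences are daDREAM minus control.

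Markers of the labelled tissue were present on all arrays. The mean log2 signal over 9 sensory neuron markers lay between 11.67 and 11.90 in control and between 11.77 and 11.87 in daDREAM ganglia, and 0 of the 9 lay below a log2 signal of 6, taken here as near background. The 2 Kcnip3 probe sets differed by 0.03 (the brighter) and 0.27, and neither passed. Whether they read RNA of the transgene was not tested, so these values do not show whether it is expressed. Several arrays stood apart. Xist, which is transcribed in females, was high on control replicate 3 (10.20), control replicate 4 (11.72) and daDREAM replicate 4 (11.51) and lay between 6.10 and 6.49 elsewhere, although the labels' protocols give male mice. The Y-linked Eif2s3y read 8.40, 7.16 and 4.46 on those 3 arrays and 8.74 to 9.04 elsewhere. Control replicates 3 and 4 thus carried Xist together with Eif2s3y above 6, while daDREAM replicate 4 had Eif2s3y under 6. Whether RNA of both sexes was mixed on those control arrays was not tested. The mean of 3 probe sets for 18S ribosomal RNA was 9.41 on control replicate 1, 10.65 on control replicate 4 and no more than 8.11 on any other array. Pituitary Gh was highest on control replicate 3 (11.15) and daDREAM replicates 3 and 4 (12.50 and 13.43), and the muscle actin Acta1 on control replicates 1 and 3 (9.20 and 9.40). Values without these arrays are given beside several of the results that they move.

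RefSeq promoter windows (build GRCm38.p6) were used for 7 of the 10 genes. Those of Egr1, Egr3 and Arc were not searched, so the motif counts below do not cover these genes. The 250 bases before the start are shown for Fos and Jun, the 2 genes whose groups did not overlap, and for Nr4a1, which has the most half-sites among the windows beside Nr4a2 and whose groups overlapped. Capitals mark the core GTCA on either strand (GTCA or TGAC). The Fos window is chr12:85473640-85473889 on the plus strand, the Jun window chr4:95052223-95052472 on the minus strand and the Nr4a1 window chr15:101266596-101266845 on the plus strand.
Fos: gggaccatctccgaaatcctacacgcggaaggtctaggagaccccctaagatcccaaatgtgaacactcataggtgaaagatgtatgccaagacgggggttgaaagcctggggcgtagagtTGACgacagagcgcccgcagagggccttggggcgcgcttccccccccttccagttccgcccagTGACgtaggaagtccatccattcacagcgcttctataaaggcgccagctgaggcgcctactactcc
Jun: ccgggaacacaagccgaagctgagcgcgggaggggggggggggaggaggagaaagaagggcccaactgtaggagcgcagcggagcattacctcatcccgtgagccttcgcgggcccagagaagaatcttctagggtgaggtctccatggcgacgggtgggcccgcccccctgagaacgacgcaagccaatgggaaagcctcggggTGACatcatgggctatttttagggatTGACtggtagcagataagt
Nr4a1: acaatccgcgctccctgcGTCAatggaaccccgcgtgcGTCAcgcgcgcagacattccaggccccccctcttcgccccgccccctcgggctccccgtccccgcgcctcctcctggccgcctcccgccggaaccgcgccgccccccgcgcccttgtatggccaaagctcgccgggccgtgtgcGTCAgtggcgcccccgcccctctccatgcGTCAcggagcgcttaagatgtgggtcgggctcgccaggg

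The CRE half-site, the element CREB binds, was searched as TGACG or CGTCA, and it contains the GTCA core. It occurred 2 times in the Fos window (starting 129 and 66 bases before the start), 0 times in that of Jun and 4 times in those of Nr4a1 and of Nr4a2. Fosb and Junb had 1 each, and Fosl2 had 0. In all, 5 of the 7 windows held a half-site, against 17.8% of all 32851 windows of this length. A whole CRE (TGACGTCA), an AP-1 site (TGACTCA or TGAGTCA) and the CArG box of SRF were found in 0 of the 7 windows, against 1.55%, 4.46% and 1.47% of all windows. The GTCA core was in 6 of the 7, all but that of Fosl2, and in 80.2% of all windows. An EGR site (GCGGGGGCG or GCGTGGGCG, either strand) was in those of Fosb, Fosl2 and Nr4a1 and in 3.06% of all windows. A TATA box (TATAAA, given strand) was found in the Fos window only, against 7.59% of all. Sites farther than 250 bases before the start were not searched, nor were sites at or after the start. A count of 0 therefore does not mean that a gene lacks the element. The shares over all windows were not matched for base composition. The 7 windows ran from 58.4% (Fos) to 80% (Nr4a2) G and C, so the counts show no enrichment of these genes. A match of letters is a description and does not show binding.

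None of the 10 genes passed the test between daDREAM and control ganglia, so no immediate early gene is called changed. Fos and Jun had the largest differences, both toward daDREAM, and their groups did not overlap, Arc came next, and the other 7 lay between -0.17 and 0.14 on the log2 scale. Of all genes tested, 2.00% passed at a limma adjusted p under 0.05. At an unadjusted p under 0.05 there were 3 of 10 members (Fos, Jun and Arc), against 18.2% of all genes, and groups did not overlap in 2 of 10, against 10.7%. These counts are too close to the background, for a list of 10, to be a result about the list. The median difference was 0.05 over the members and 0.00 over all genes, with 7 members above 0 and 3 below. The median size of the difference regardless of sign was 0.16 against 0.10.

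**Figure D1:**
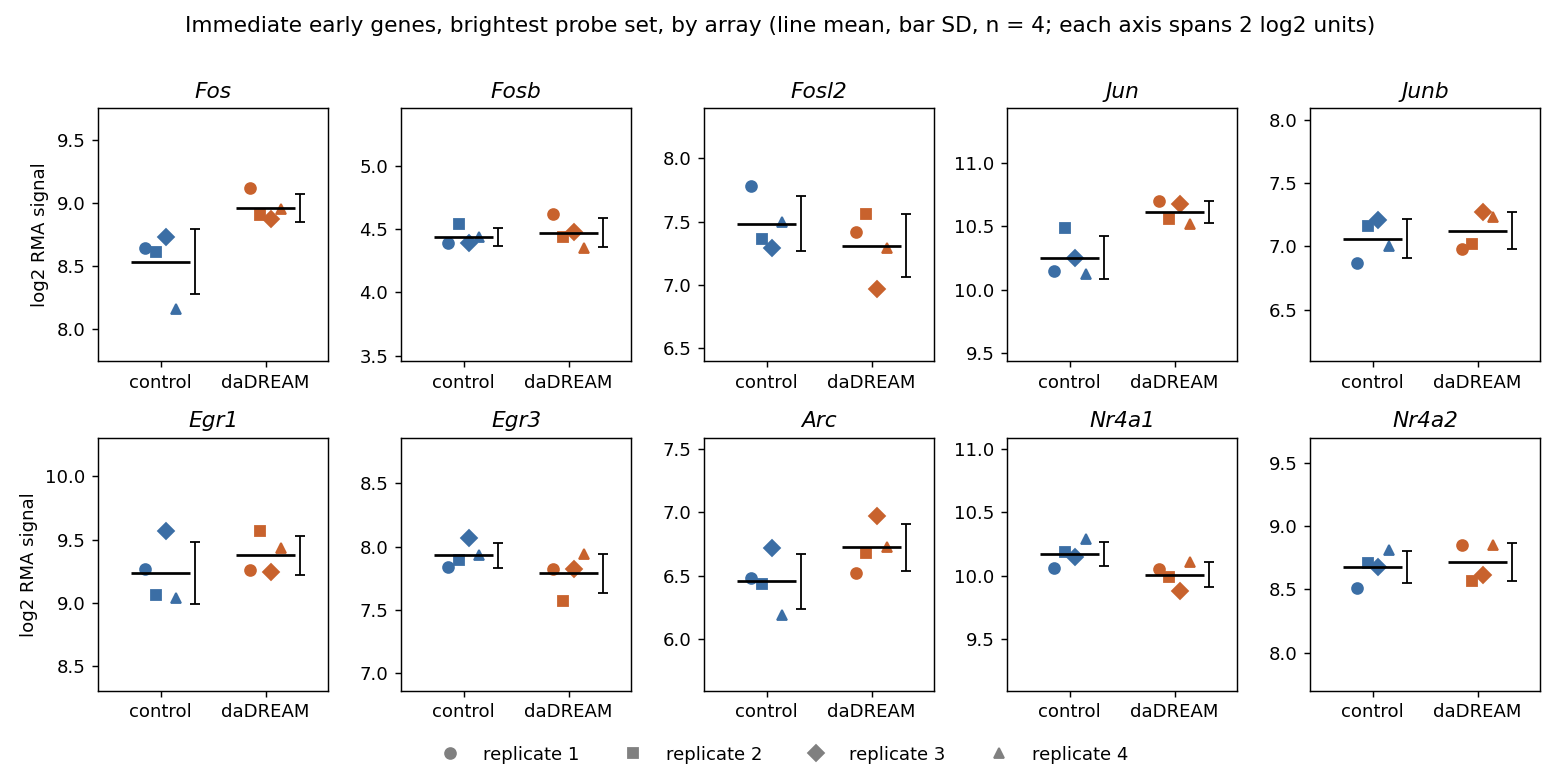
Log2 RMA signal (vertical axis, 2 log2 units in every panel) of each immediate early gene at its brightest probe set, for 4 control arrays (blue) and 4 daDREAM arrays (orange), with marker shapes for the replicate number, lines for group means and bars for SD. Groups separate for Fos (8.16 to 8.73 against 8.87 to 9.12) and Jun (10.12 to 10.49 against 10.52 to 10.70) and overlap for the other 8 genes.

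Fos proteins pair with Jun proteins through their leucine zippers to form the transcription factor AP-1. Fos, the founding member, read 8.64, 8.61, 8.73 and 8.16 on control replicates 1 to 4 and 9.12, 8.90, 8.87 and 8.95 on daDREAM replicates 1 to 4. Every daDREAM array was above every control array, and control replicate 4 was lowest by a clear margin. The group means were 8.54 ± 0.26 and 8.96 ± 0.11 (SD, n = 4), a 1.34-fold ratio with a 95% interval of 1.12 to 1.61. The difference of 0.43 (SE 0.12) did not pass (limma adjusted p = 0.103 over genes, 0.0884 over probe sets). Leaving out control replicate 4 gave 0.30 (adjusted p = 0.107), and leaving out both arrays with the most 18S gave 0.29 (adjusted p = 0.247). Without the arrays with Xist signal the difference was 0.34 (adjusted p = 0.193), without those with the most Gh 0.54 (adjusted p = 0.265) and without those with the most Acta1 0.58 (adjusted p = 0.114). Over all settings tried the sign was the same and the adjusted p ran from 0.0585 to 0.364.

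Fosb, whose product has a truncated form that builds up with repeated activity, was near background. It read 4.39 to 4.54 in control and 4.35 to 4.62 in daDREAM ganglia, both under 6, so these arrays say little about it. Fosl2, which encodes Fra-2, read 7.78, 7.36, 7.29 and 7.50 in control and 7.42, 7.56, 6.97 and 7.29 in daDREAM ganglia at its brighter probe set. The groups overlapped, and the difference was -0.17 (95% interval -0.47 to 0.12, limma adjusted p = 0.518). It shrank to -0.07 without control replicate 1, to -0.06 without daDREAM replicate 3 or without the arrays highest in Gh and to -0.02 without those with the most 18S, and was -0.26 without daDREAM replicate 2. Its other probe set differed by 0.07 (SE 0.10). Neither pointed to a change larger than the spread between arrays.

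Jun, the AP-1 partner of Fos proteins, is also known to be induced in injured sensory neurons. The brighter of the 2 Jun probe sets, 1417409_at, read 10.15, 10.49, 10.25 and 10.12 in control and 10.70, 10.56, 10.68 and 10.52 in daDREAM ganglia. All daDREAM arrays were again above all control arrays, with control replicate 2 close behind. Means were 10.25 ± 0.17 and 10.62 ± 0.09 (SD, n = 4), a 1.29-fold ratio (95% interval 1.12 to 1.48). The difference of 0.36 (SE 0.09) did not pass over genes (limma adjusted p = 0.0776) or probe sets (adjusted p = 0.0655). It passed in 1 of the settings tried, without control replicate 2, where it was 0.44 (adjusted p = 0.0240). Without control replicate 4, the lowest control, it was 0.32 (adjusted p = 0.141). Leaving out the arrays with Xist signal gave 0.33 (adjusted p = 0.259), those with the most 18S 0.25 (0.359), those with the most Gh 0.38 (0.331) and those with the most Acta1 0.31 (0.277).

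The second Jun probe set, 1448694_at, gave another picture. It read 10.15, 10.09, 9.93 and 9.98 in control and 9.93, 10.00, 9.94 and 9.97 in daDREAM ganglia, a difference of -0.08 (95% interval -0.24 to 0.08, limma adjusted p = 0.604 over probe sets). The groups overlapped. Brighter minus other, the probe sets differed by 0.00, 0.40, 0.32 and 0.14 on control replicates 1 to 4 and by 0.77, 0.56, 0.74 and 0.55 on daDREAM replicates 1 to 4, a contrast singled out after its values were seen. Averaging both gave a Jun difference of 0.14 (adjusted p = 0.257 over genes). The sources used here do not say which part of the Jun transcript each probe set reads. Junb read 6.87, 7.16, 7.21 and 7.00 in control and 6.98, 7.02, 7.27 and 7.23 in daDREAM ganglia. The groups overlapped over most of their range, and the difference was 0.07 (95% interval -0.15 to 0.28, adjusted p = 0.760).

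**Figure D2:**
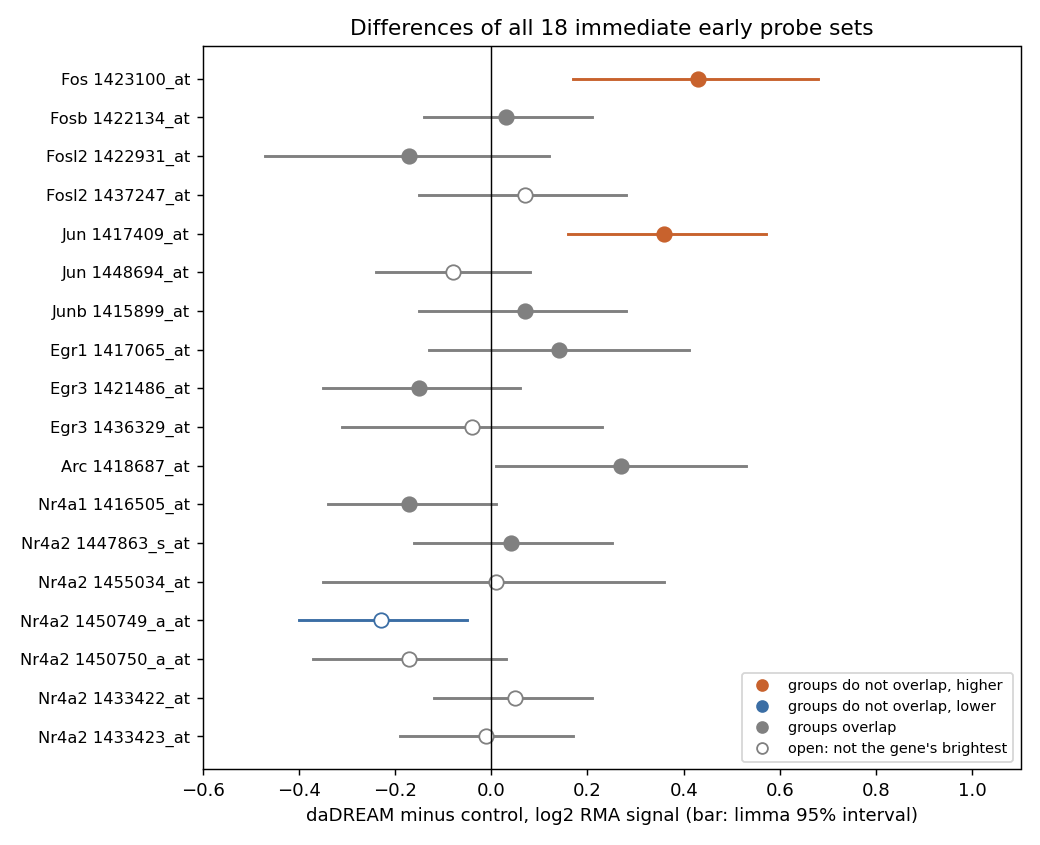
Difference in log2 RMA signal, daDREAM minus control (horizontal axis), for the 18 immediate early probe sets, with the limma 95% interval as a bar, filled points for the brightest probe set of a gene and open points for the others. Groups do not overlap at 3 probe sets, those of Fos (0.43), Jun 1417409_at (0.36) and Nr4a2 1450749_a_at (-0.23), and the second Jun probe set lies at -0.08.

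Over probe sets, 0 of 18 passed, against 2.74% of all 45037. At an unadjusted p under 0.05 there were 4, against 18.5%, and groups did not overlap in 3, of which 2 were higher and 1 lower, against 11.0%. The median difference of the 18 was 0.02, and that of all probe sets was -0.01.

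Egr1 and Egr3 are zinc finger factors that SRF and MAP kinase signals induce. Egr1 read 9.27, 9.06, 9.57 and 9.04 in control and 9.26, 9.57, 9.24 and 9.43 in daDREAM ganglia. The highest arrays of both groups had the same value, and the difference was 0.14 (95% interval -0.13 to 0.41, limma adjusted p = 0.564). It was 0.25 without control replicate 3, 0.08 without control replicate 2, control replicate 4 or daDREAM replicate 2, 0.06 without the arrays with the most 18S, 0.29 without those with the most Gh and 0.33 without those with the most Acta1, and passed in none of these. Egr3 read 7.84, 7.89, 8.07 and 7.93 in control and 7.82, 7.57, 7.82 and 7.94 in daDREAM ganglia. It differed by -0.15 (95% interval -0.34 to 0.05, adjusted p = 0.414), and its other probe set by -0.04 (SE 0.12). Without daDREAM replicate 2 the first was -0.07. The groups overlapped at both.

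Arc, which encodes a cytoskeletal protein of synapses that regulates AMPA receptor uptake, is the one member of the 10 that is not a transcription factor. It read 6.48, 6.43, 6.72 and 6.19 in control and 6.52, 6.68, 6.97 and 6.73 in daDREAM ganglia. Control replicate 4 was the lowest control, as for Fos, Jun and Egr1, and the groups overlapped through control replicate 3. Means were 6.46 ± 0.22 and 6.73 ± 0.19 (SD, n = 4), a difference of 0.27 (SE 0.12) with an unadjusted p of 0.0463 and a limma adjusted p = 0.267. The difference was 0.15 (adjusted p = 0.715) without the arrays with the most 18S, 0.42 (adjusted p = 0.221) without those with the most Acta1 and 0.18 (adjusted p = 0.482) without control replicate 4.

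Nr4a1 and Nr4a2 encode orphan nuclear receptors, and Nr4a1 is among the best known CREB targets. Nr4a1 read 10.06, 10.19, 10.15 and 10.29 in control and 10.05, 9.99, 9.88 and 10.11 in daDREAM ganglia. Of the daDREAM arrays, 3 of 4 lay below every control, in the opposite direction to Fos, but the groups overlapped and the difference of -0.17 (95% interval -0.34 to 0.01) did not pass (limma adjusted p = 0.294). Nr4a2 had means of 8.68 ± 0.12 and 8.72 ± 0.15 (SD, n = 4) at its brightest probe set, a difference of 0.04 (95% interval -0.16 to 0.25). Its 6 probe sets differed by values from -0.23 to 0.05. At 1450749_a_at the groups did not overlap, with 8.63, 8.64, 8.57 and 8.85 in control against 8.49, 8.37, 8.49 and 8.43 in daDREAM ganglia. That difference of -0.23 (SE 0.08) did not pass (adjusted p = 0.163 over probe sets).

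The intervals limit what could have been missed. The upper bound of a higher level in daDREAM ganglia was 1.61-fold for Fos, 1.48-fold for Jun, 1.45-fold for Arc and 1.33-fold for Egr1. For Nr4a1 the interval of the ratio ran from 0.792 to 1.01. At the second Jun probe set it ran from 0.848 to 1.06, so the Jun bound holds for the brighter probe set only.

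Markers of some other cell types differed between the groups. All 6 astrocyte and hindbrain markers had differences above 0, with Aqp4 past the test, and the mean over the list was 9.25 to 10.28 in control and 10.39 to 10.90 in daDREAM ganglia, without overlap. Control replicate 4, the lowest control for Fos, Jun, Egr1 and Arc, had the lowest mean of that list (9.25). Control replicates 1 and 4 had the lowest Gfap (8.63 and 8.29). Skeletal muscle markers were all 6 below 0, with list means of 6.68 to 8.26 against 6.54 to 6.70. Pituitary markers were all 6 above 0, but their list means overlapped widely (6.97 to 8.22 against 6.76 to 9.50). Endothelial markers were mixed, 4 above 0 and 2 below, with list means of 7.77 to 7.99 against 7.91 to 8.16. Of these, Cldn5 passed (0.57, limma adjusted p = 0.00975). Fibroblast markers were also mixed, 2 above 0 and 3 below, with list means of 11.07 to 11.91 against 10.81 to 12.29. Among them Dcn was lower without overlap (-0.50, limma adjusted p = 0.0718), while Col1a1 differed by 0.38. No marker of the muscle or pituitary list passed, and 1 marker of each lay under 6 (Myh4 and Fshb). Immediate early genes can be induced in many cell types. The part of these cells in the Fos and Jun values was not tested, and in ganglion RNA a change in the number of cells of a type and a change in RNA per cell cannot be told apart.

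Between arrays of the same group the 10 genes did not rise and fall as a block. With each group's mean removed, the 45 pairs of genes had a median correlation of 0.05 over 8 arrays, from -0.90 for Fosl2 with Junb to 0.88 for Nr4a1 with Nr4a2. Of the pairs, 6 were above 0.5 and 6 below -0.5. Fosb with Jun had 0.73, although Fosb was near background, Junb with Arc had 0.65 and Egr1 with Arc 0.51. These are descriptions over few arrays that share their normalization. Probe sets of 1 gene did not correlate closely either, with 0.03 for the 2 of Jun, -0.07 for the 2 of Egr3, 0.50 for the 2 of Fosl2 and -0.41 to 0.85 for the 15 pairs of Nr4a2. Control replicate 1 was lowest of its group for 5 of the 10 genes and control replicate 3 highest for 5.

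**Figure D3:**
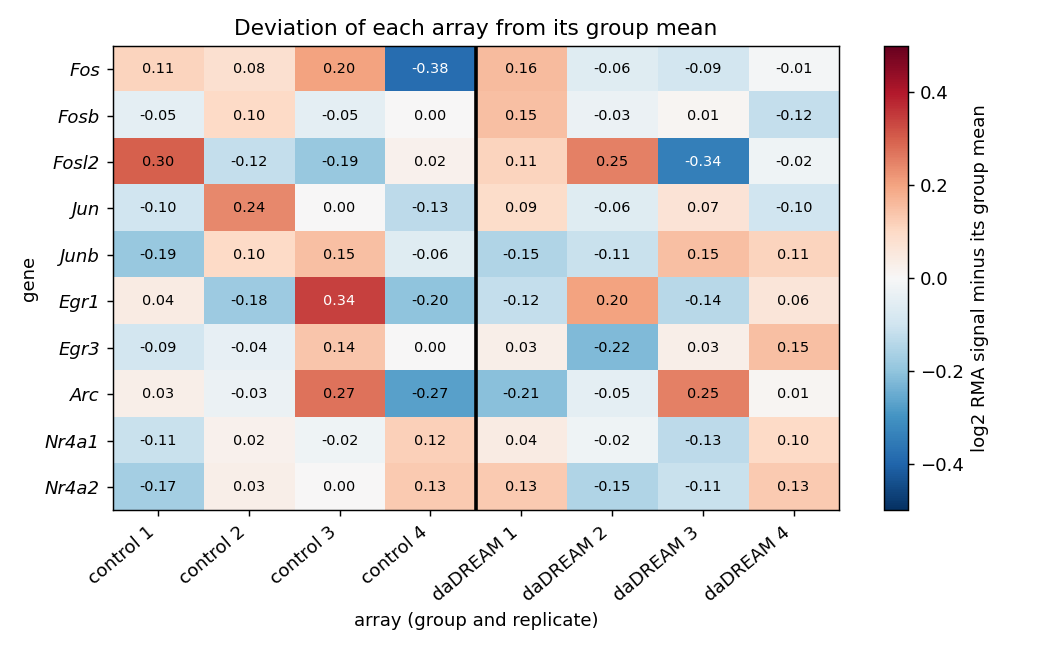
Log2 RMA signal of each immediate early gene (rows) on each array (columns) minus the mean of its group, red for above and blue for below. Control replicate 4 is below its group mean for Fos (-0.38), Arc (-0.27) and Egr1 (-0.20) and above it for Nr4a1 (0.12), and no array is high or low for all 10 genes.

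For the mean of the 10 centred and scaled genes, the closest of 14634 other genes with a mean signal of at least 6 were Tpst2 (Pearson 0.99), Mgat4b, Satb1 and Cetn4 (0.96 each), Nf2 and Rhpn1 (0.95 each) and Zfand2a and Acvr2b (0.94 each), over 8 arrays. Most opposite were Zfp939 and Plet1 (-0.96 each), Rap2b and Gcfc2 (-0.95 each) and Zfp451, Atp8b3, Zfp369 and Wfdc15b (-0.94 each). None of these 16 passed the test between groups. They are the extremes of that many genes over few arrays and are given as a description.

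In 4 lists of related genes, 3 genes passed, and the counts are to be read against the 2.00% of all genes that passed. Of 19 other immediate early regulators 1 rose and 1 fell, and 17 did not pass. Nfil3, a leucine zipper repressor linked to the circadian clock, read 6.22, 6.28, 6.36 and 6.17 in control and 6.70, 7.12, 6.91 and 6.61 in daDREAM ganglia. All daDREAM arrays were above all controls, and it rose 1.49-fold (6.26 ± 0.08 to 6.84 ± 0.23, SD, n = 4, limma adjusted p = 0.0164). The clock gene Per1, also inducible through CREB, read 8.47, 8.81, 9.12 and 8.61 in control and 8.24, 8.32, 8.02 and 7.97 in daDREAM ganglia and fell 1.53-fold (adjusted p = 0.0406). Both calls were lost in several settings. Nfil3 did not pass without the arrays with Xist signal (0.66, adjusted p = 0.0537), the most 18S (0.52, adjusted p = 0.165), the most Gh (0.69, adjusted p = 0.108) or the most Acta1 (0.61, adjusted p = 0.111), differences of much the same size from fewer arrays, nor without control replicate 1 (adjusted p = 0.0575) or daDREAM replicate 3 (adjusted p = 0.0633). Per1 lost its call without any single array except control replicate 1, with adjusted p between 0.0533 and 0.124, while its difference lay between -0.49 and -0.71 without single arrays. Leaving out the arrays highest in Gh brought it to -0.35 (adjusted p = 0.323), and leaving out those with the most 18S to -0.83, which passed (adjusted p = 0.0196).

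The median of the 19 was -0.01, with 9 above 0 and 10 below. Egr2, a factor of myelinating Schwann cells, read 9.83, 9.57, 9.80 and 9.88 in control and 8.92, 9.31, 9.35 and 9.86 in daDREAM ganglia. Only daDREAM replicate 4 reached the control range, and the difference of -0.41 did not pass (limma adjusted p = 0.218) except without daDREAM replicate 4, where it was -0.58 (adjusted p = 0.0431). Ier5 had a difference of 0.19 (adjusted p = 0.252) for the brightest of its probe sets, while another, 1417613_at, rose by 0.31 (adjusted p = 0.0444 over probe sets) and was singled out after its values were seen. Zfp36l1, an RNA-binding protein that destabilises messages, differed by 0.24 (adjusted p = 0.262).

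Of 28 activity-regulated effectors, 1 rose and 27 did not pass, a share close to the 2.00% of all genes. Rgs2, which shortens signalling by G proteins, read 8.93, 8.78, 9.01 and 8.50 in control and 9.27, 9.45, 9.28 and 9.23 in daDREAM ganglia. The groups did not overlap, and it rose 1.42-fold (limma adjusted p = 0.0376). Control replicate 4 was lowest at this probe set. The other probe sets differed by 0.40, 0.30 and -0.15, none of which passed, and control replicate 4 was lowest at none of them. The probe set at -0.15, 1443250_at, was near background, with means of 5.30 in control and 5.15 in daDREAM ganglia. The mean of the 4 probe sets, this dim one included, differed by 0.26 (limma adjusted p = 0.0503). The Rgs2 call was lost without any single array except control replicate 3 or 4, with adjusted p from 0.0589 to 0.129, and without the arrays with Xist signal (0.0738), the most 18S (0.112) or the most Gh (0.163). Homer1, a synaptic scaffold with an activity-induced short form, differed by 0.29 (adjusted p = 0.0809) and Ccn2, a matricellular protein, by -0.34 (adjusted p = 0.0839). Ccn2 passed in 4 of 21 other settings, with adjusted p from 0.0302 to 0.0411. These were repeated quantile normalization, array weights, and leaving out the arrays with the most 18S or control replicate 1. For Homer1 a dim probe set, 1436387_at, rose by 0.66 (adjusted p = 0.0187 over probe sets) from a control mean of 5.17, near background; it was singled out after its values were seen. The sources used here do not say which Homer1 probe set reads the short form. Tiparp, an ADP-ribosyltransferase, differed by -0.26 (adjusted p = 0.173).

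None of 15 other AP-1 and small leucine zipper genes passed, with 5 at an unadjusted p under 0.05, against 18.2% of all genes, and a median of -0.06. Mafg, a small Maf protein, differed by 0.34 (limma adjusted p = 0.171), the Jun family member Jund by -0.29 (adjusted p = 0.204) and Jdp2, a Jun dimerisation partner, by 0.21 (adjusted p = 0.232). The groups overlapped in all 3 at these probe sets. At a second Jund probe set, 1440265_at, they did not, with 6.09 to 6.39 in control against 5.80 to 6.05 in daDREAM ganglia (-0.31, adjusted p = 0.0952 over probe sets). Of the 25 upstream kinases and factors measured, 0 passed, 3 had an unadjusted p under 0.05, against the same 18.2%, and the median was 0.06. The CREB coactivator Crtc3 had a difference of 0.36 (adjusted p = 0.0957) for the brighter of its probe sets and -0.32 for the other. Crtc1, another coactivator, differed by 0.25 (adjusted p = 0.171) at its brightest probe set and by -0.01 and -0.09 at the others, and the mean of the 3 by 0.05 (adjusted p = 0.678). Elk4, an SRF partner, differed by -0.24 (adjusted p = 0.184).

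**Figure D4:**
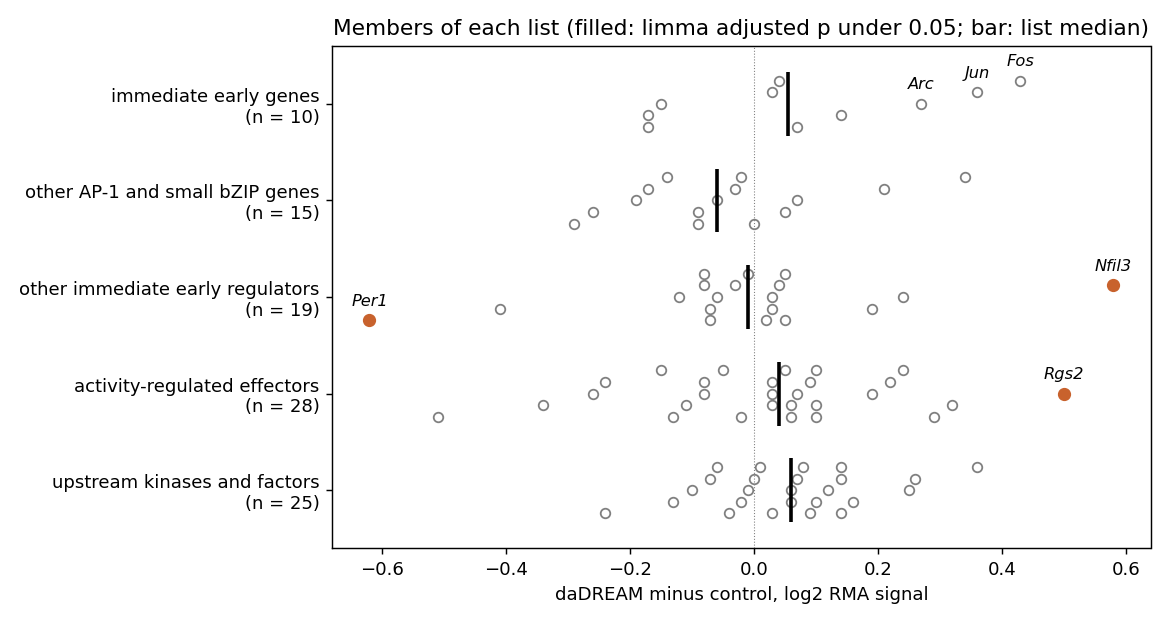
Difference in log2 RMA signal, daDREAM minus control (horizontal axis), of each gene in the 5 lists, with filled points for a limma adjusted p under 0.05 and a bar at each list's median. Of the immediate early genes Fos, Jun and Arc lie farthest to the right without passing, and the 3 filled points are Nfil3, Per1 and Rgs2.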

How the data were processed

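Trigeminal ganglion RNA was hybridised to Affymetrix Mouse Genome 430 2.0 arrays, 4 for each group. The deposited values are log2 signals that the authors made with RMA in affy, per the submitters' processing notes, with no version stated. The array medians lay between 7.09 and 7.13. Of 45101 probe sets, 64 Affymetrix controls were left out. Each gene was represented by its brightest probe set with 1 symbol. Groups were compared with limma 3.58.1 (lmFit, eBayes, R 4.3.3) and Benjamini-Hochberg adjustment over all genes or probe sets, with 0.05 as the threshold, after the code was tested on simulated data. A limma fit with the replicate number as a block was an alternative.

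The members and lists were chosen with earlier results of these data known. Named are all 10 members, in each other list the genes that passed and up to 3 more with the smallest p, Kcnip3, and the 8 most and 8 least alike genes; exceptions are marked. Motifs were searched in RefSeq windows. Depth does not apply to arrays, and their number limits the precision.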

Additional observations from a re-analysis of the deposited data

How the results depend on the processing

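Leaving out each array in turn gave 0 to 1 immediate early genes and 0 to 1 immediate early probe sets past the test, against 0 of each in the reported fit; the 1 was Jun without control replicate 2. Of other immediate early regulators, 2 passed; without the arrays with the most 18S it was 1, with an unequal-variance test or without those with Xist signal, the most Gh or the most Acta1 it was 0, and without single arrays 0 to 2. Of activity-regulated effectors, 1 passed. The count was 2 with quantile normalization repeated, array weights or the probe set with the largest SD. It was 0 with the mean of probe sets, the unequal-variance test or without the arrays with Xist signal or the most Gh. Without single arrays it was 0 to 1. Without control replicate 1 or the arrays with the most 18S, the 1 was Ccn2 instead of Rgs2. With the largest-SD probe set 1 upstream gene passed (Mef2c, -0.56 against 0.14 at its brightest probe set, singled out after its values were seen), and Crtc3 turned to -0.32.

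Over all genes 364 passed. The count was 672 with the replicate block, 697 with the largest-SD probe set, 49 with the unequal-variance test, 213, 227, 98 and 171 without the arrays with Xist signal, the most 18S, the most Gh and the most Acta1, and 229 to 349 without single arrays. Same-numbered arrays of the groups had correlations of 0.25, 0.01, 0.30 and 0.34 in their deviations. Control replicates 1, 3 and 4 correlated best with their own number and control replicate 2 with number 1, a hint from the data and not from the design. The numbers were not taken as pairs, since that needed every pair above 0.1 and the labels do not pair the arrays. With the block 0 members passed.

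Members near 0 changed sign. Fosb was -0.02 without the most Acta1 and -0.02 to 0.07 without single arrays. Junb was -0.06 and -0.01 without the most 18S and Gh. Nr4a2 was -0.02 with quantiles repeated, -0.05 as a mean over probe sets, -0.04 without the most Acta1 and -0.01 to 0.09 without single arrays. The Nr4a2 probe set 1433422_at was -0.01 and -0.04 without Xist signal and the most Gh, and 0.00 to 0.09 without single arrays. Probe set 1433423_at was 0.01 with repeated quantiles, array weights or without Xist signal, 0.00 with median centring, 0.06 without the most 18S and -0.06 to 0.05 without single arrays. Probe set 1455034_at was -0.05, -0.11, -0.19 and -0.10 with repeated quantiles, array weights and without Xist signal or the most 18S, and -0.14 to 0.10 without single arrays. Egr3 1436329_at was 0.07, 0.01 and 0.01 without the most 18S, Gh and Acta1, and -0.12 to 0.08 without single arrays. Fosl2 1437247_at was -0.08 without Xist signal. Causes were not tested. Fosb has no value with dim probe sets left out, and single probe sets have none under the rules that merge or choose them.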
